A study of Mus musculus with 6 samples.

Results

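Amino acid catabolism was followed as a set of 47 genes, named by symbol, whose enzymes break down tyrosine, tryptophan, serine, histidine, alanine and aspartate, the branched-chain amino acids, lysine, glycine, the sulfur amino acids and proline. All 47 were listed in each of the 6 libraries, among 18253 symbols listed in at least 1 library, and all 47 passed the abundance filter that left 10593 genes for testing. Total RNA came from liver, in C57BL/6 mice that the labels place at postnatal day 21. In 3 libraries (celastrol) mice with cholestasis induced by alpha-naphthylisothiocyanate (ANIT), a chemical toxic to bile duct cells, had also received celastrol, a plant triterpenoid, and in 3 libraries (ANIT) they had received ANIT alone, both over 5 days. Both groups carried the ANIT injury and there was no untreated group, so the comparison is between injured livers with and without celastrol. Doses, sex and whether each library is a separate animal are not given in the labels, so a p-value here reflects only how these samples varied, which may be technical.

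The liver is the main site of amino acid breakdown. Most routes begin by removing the amino group, either by transaminases or by dehydratases and lyases, and the carbon skeletons are then oxidised in steps to intermediates of glucose, ketone body or citric acid cycle metabolism. Rate-limiting enzymes of several routes, such as tyrosine aminotransferase and tryptophan dioxygenase, are known as hormone-responsive liver genes, and several routes are divided between periportal and pericentral hepatocytes.

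For most of these genes no difference was detected with 3 libraries a group, which does not show them to be unchanged. Of the 47, 3 rose (Hpd, Haao and Mat1a), 3 fell (Gpt, Gpt2 and Cth), and 41 did not pass an adjusted p of 0.05 in limma's fit on log2(FPKM + 1) over all genes tested. FPKM is a fragment count scaled to gene length and library size. Among all genes tested, 4.41% rose and 20.6% fell, against 6.38% in each direction here. The median log2 fold change of the 47 genes was 0.07, beside -0.17 over all genes tested, and 28 of the 47 (59.6%) lay above 0, beside 27.9% of all genes tested. The celastrol libraries all lay above the ANIT libraries for 11 of the 47 and all below them for 5, where 8.35% of all tested genes lay wholly above and 36.6% wholly below.

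**Figure D1:**
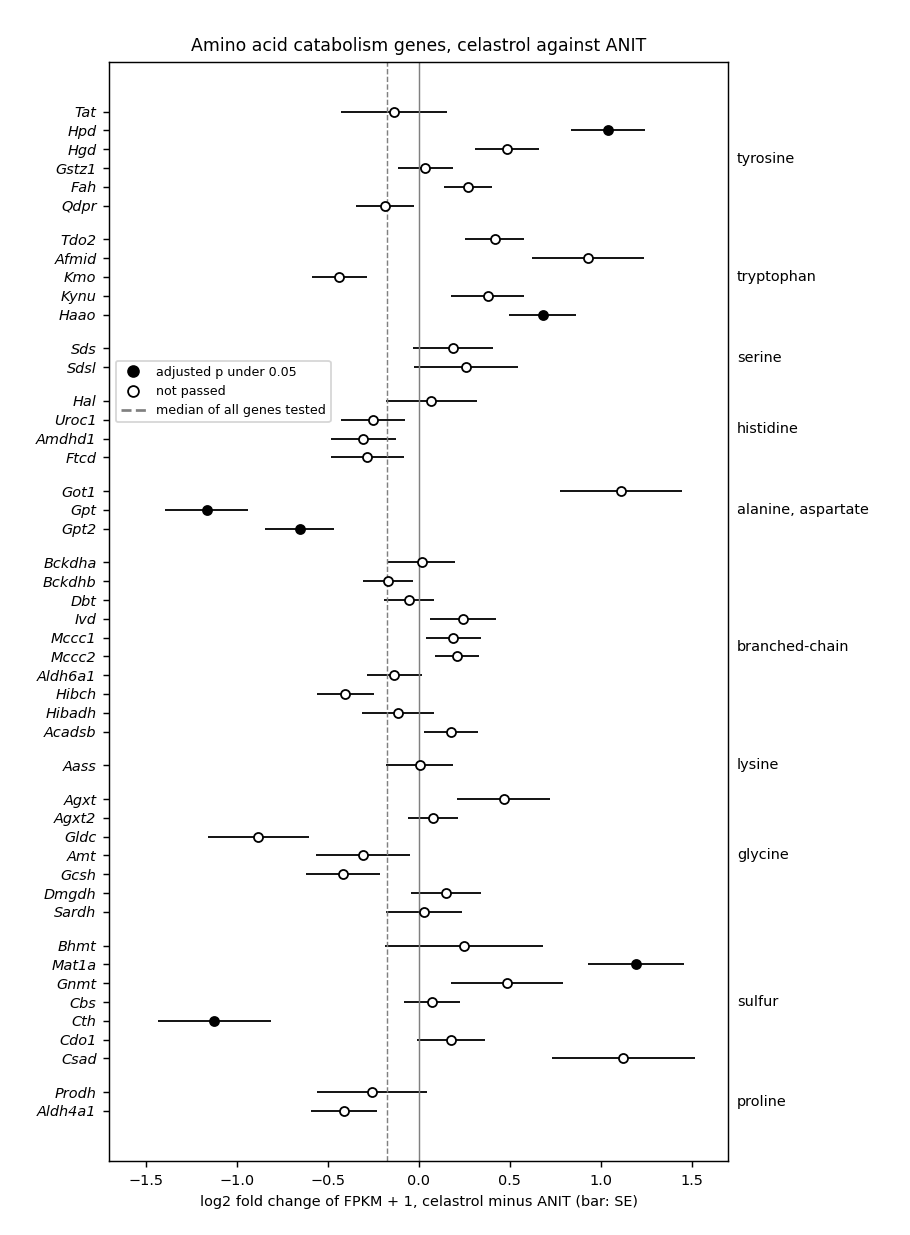
Log2 fold change of FPKM + 1, celastrol minus ANIT, for each of the 47 genes in order of amino acid, with its standard error; filled points passed an adjusted p of 0.05. The 3 filled points right of 0 are Hpd, Haao and Mat1a, the 3 left of 0 are Gpt, Gpt2 and Cth, and the dashed line marks the median of all tested genes at -0.17.

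The split between rises and falls depended on how libraries were scaled. Under median-ratio scaling 10 of the 47 rose and 1 fell, where 8.53% of all genes rose and 9.81% fell. After quantile normalization 9 rose and 1 fell, where 8.24% of all genes rose and 8.99% fell. Rescaled to TPM, in which every library has the same sum, 3 rose and 7 fell, where 3.67% of all genes rose and 36.0% fell. The median of the 47 genes was 0.28, 0.26 and -0.06 under these scalings, beside 0.01, 0.01 and -0.30 for all genes tested. Hpd and Haao passed as higher, and Gpt as lower, under each of the 4 scalings.

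**Figure D2:**
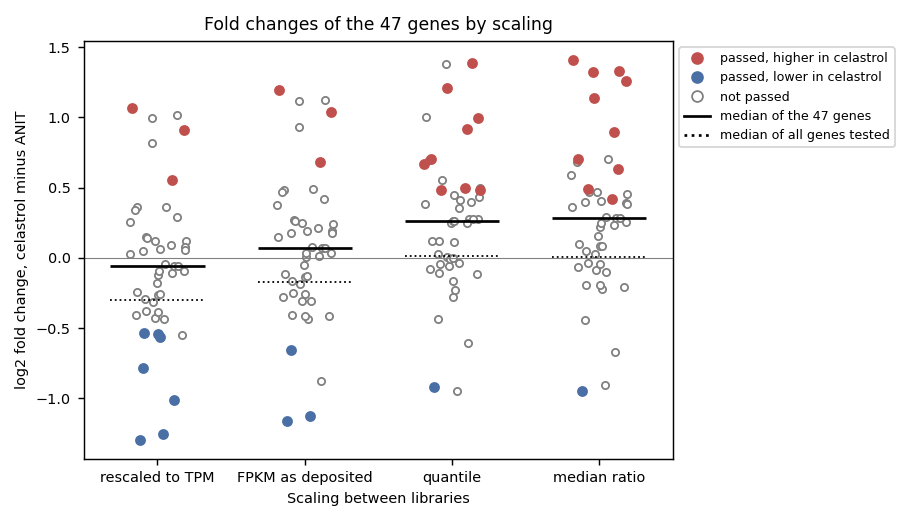
Log2 fold changes of the 47 genes (vertical axis) under 4 scalings between libraries (horizontal axis), with solid lines at the median of the 47 and dotted lines at the median of all genes tested. The 47 genes move up and down together with the scaling, and their median lies above that of all genes in each.

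Libraries differed within groups in ways that touch these genes. The 10 most abundant genes of a library took 33.2%, 20.7% and 31.5% of the summed FPKM in celastrol replicates 1, 2 and 3, and 20.3% to 21.9% in the ANIT libraries. Celastrol replicate 2 was the highest of its group for 33 of the 47 genes (70.2%), as it was for 63.6% of all genes tested. ANIT replicate 1 was the highest of its group for 32 of the 47 (68.1%), against 36.1% of all genes tested. Without celastrol replicate 2, 3 of the 47 rose (Hpd, Haao and Mat1a) and 9 fell (Gpt, Gpt2, Cth, Kmo, Hibch, Gcsh, Qdpr, Prodh and Aldh4a1), where 4.86% of all genes tested rose and 31.4% fell. Without celastrol replicate 1, 2 rose (Hpd and Afmid) and none fell in limma (3 lay lower at an unadjusted p under 0.05), where 2.06% of all genes tested rose and 8.58% fell. Library depth, estimated from the steps between low values, was roughly 18980000 to 19840000 reads. The fit was loose, as values lay on average 0.191 to 0.206 from a whole read. The median over the depths tried was 0.250 to 0.252. The least abundant of the 47 genes had 8.80 FPKM, so at such depths none rests on few reads. RNA of whole liver does not tell fewer cells of a type apart from less RNA per cell.

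Of the 6 genes that passed, 3 have a promoter in the RefSeq table of the same genome build (GRCm38.p6), and these are shown because the results turn on them, from 250 bases before to 50 after the transcription start, 5′ to 3′ on the gene's strand. Capitals mark a match to any of the 8 motifs searched. The Haao window, up to position 83847040, lies inside the gene as placed by the GENCODE M21 annotation (83831156 to 83847963).
Hpd, chr5:123182674-123182973, minus strand: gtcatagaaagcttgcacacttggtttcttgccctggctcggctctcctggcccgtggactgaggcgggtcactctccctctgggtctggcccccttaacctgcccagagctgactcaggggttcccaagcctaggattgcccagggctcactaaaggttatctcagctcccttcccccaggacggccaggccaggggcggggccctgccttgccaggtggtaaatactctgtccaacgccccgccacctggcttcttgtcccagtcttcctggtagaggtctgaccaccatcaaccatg
Haao, chr17:83846741-83847040, minus strand: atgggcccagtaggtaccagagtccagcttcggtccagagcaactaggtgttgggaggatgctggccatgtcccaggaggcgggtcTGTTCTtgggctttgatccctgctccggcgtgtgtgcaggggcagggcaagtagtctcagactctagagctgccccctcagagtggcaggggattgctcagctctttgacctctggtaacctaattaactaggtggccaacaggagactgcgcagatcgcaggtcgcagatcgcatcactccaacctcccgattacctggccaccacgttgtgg
Gpt2, chr8:85492326-85492625, plus strand: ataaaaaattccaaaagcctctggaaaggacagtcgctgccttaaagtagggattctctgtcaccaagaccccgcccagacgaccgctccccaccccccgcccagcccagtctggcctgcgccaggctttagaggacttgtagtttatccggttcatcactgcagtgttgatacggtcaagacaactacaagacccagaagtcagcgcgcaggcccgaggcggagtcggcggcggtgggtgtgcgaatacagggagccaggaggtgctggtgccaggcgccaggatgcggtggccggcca

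Motifs were searched on both strands in the 44 promoters of the 39 members that the table holds and in all 32851 promoters of the same length. The arm of the glucocorticoid receptor element, TGTTCT, occurred in 6 of the 44 (13.6%) and in 19.0% of all promoters, and among the 3 printed above only that of Haao holds it. The C/EBP motif TTGCNNCAA occurred in 2 of the 44 (4.55%) and in 2.08% of all, and its variant TTGCNNAAT in 1 of the 44 (2.27%) and in 2.40% of all. The HNF4 motif CAAAGTCCA occurred in 2 overlapping promoters of Agxt2 (4.55% of the 44) and in 0.475% of all. The shortened cAMP response element TGACG occurred in 5 of the 44 (11.4%) and in 20.8% of all, and the full element TGACGTCA, which contains it, in none of the 44 and in 1.79% of all. The antioxidant response element TGACNNNGC occurred in 4 of the 44 (9.09%) and in 12.4% of all. HNF1's GTTAATNAT occurred in none of the 44 and in 0.801% of all. A match describes letters in this window and not a bound site.

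Tyrosine breakdown runs from Tat, the aminotransferase that opens the route, through Hpd, Hgd and Gstz1 to Fah. Hpd encodes 4-hydroxyphenylpyruvate dioxygenase, the second enzyme of the route (chromosome 5, positions 123171807 to 123182727 in mm10, minus strand). It had 816, 1333 and 896 FPKM in celastrol replicates 1, 2 and 3, against 498, 482 and 467 FPKM in ANIT replicates 1, 2 and 3. Every celastrol library lay above every ANIT library, and the ANIT values were tightly grouped. The log2 fold change was 1.04 (SE 0.20, adjusted p = 0.011 in limma), and Hpd passed under all 14 alternatives tried, with 1 library left out included (adjusted p 0.0037 to 0.047).

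The other tyrosine genes did not pass. Hgd, which opens the homogentisate ring, averaged 190.6 ± 43.1 FPKM in celastrol and 134 ± 8.74 FPKM in ANIT (SD, n = 3 each; adjusted p = 0.080 in limma). Its groups did not overlap, and it passed as higher under median-ratio and quantile scaling. Fah, the last enzyme, which releases fumarate and acetoacetate, averaged 337 ± 29.0 FPKM in celastrol and 279 ± 10.5 FPKM in ANIT (SD, n = 3 each; adjusted p = 0.17 in limma), also without overlap, and it too passed as higher under those 2 scalings. Tat had 681, 938 and 1492 FPKM in celastrol replicates 1, 2 and 3, against 917, 1079 and 1272 FPKM in ANIT replicates 1, 2 and 3. The ANIT values of Tat lay inside the celastrol range, with a log2 fold change of -0.13 (SE 0.29, adjusted p = 0.76 in limma). Gstz1, the maleylacetoacetate isomerase, had a log2 fold change of 0.04 (SE 0.15), and Qdpr, which regenerates the cofactor tetrahydrobiopterin, one of -0.18 (SE 0.16). Of this route the early enzyme Tat was the most abundant in ANIT livers, and in 2 of 3 celastrol livers Hpd exceeded it, with a Hpd to Tat ratio (picked out after its values were seen) of 1.20, 1.42 and 0.601 in celastrol replicates 1, 2 and 3 and of 0.543, 0.447 and 0.367 in ANIT replicates 1, 2 and 3.

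Tryptophan breakdown through kynurenine showed separated groups for all 5 members, 4 higher and 1 lower with celastrol, but only 1 of them passed. Of all tested genes, 8.35% lay wholly above and 36.6% wholly below. Haao encodes 3-hydroxyanthranilate dioxygenase, which makes the direct precursor of quinolinate (chromosome 17, positions 83831156 to 83847963, minus strand). It had 234, 340 and 224 FPKM in celastrol replicates 1, 2 and 3, against 155, 176 and 157 FPKM in ANIT replicates 1, 2 and 3. The lowest celastrol library was above the highest ANIT library. The log2 fold change was 0.68 (SE 0.18, adjusted p = 0.033 in limma). The call was lost without celastrol replicate 1 or any 1 ANIT library and without the filter (adjusted p up to 0.096).

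Of the other tryptophan genes, Tdo2, the dioxygenase that opens the route, had 696, 863 and 914 FPKM in celastrol replicates 1, 2 and 3, against 663, 620 and 560 FPKM in ANIT replicates 1, 2 and 3. The groups lay apart by a narrow gap (log2 fold change 0.42, SE 0.16, adjusted p = 0.098 in limma), and Tdo2 passed as higher under median-ratio scaling. Afmid, the formamidase that follows it, averaged 39.9 ± 16.1 FPKM in celastrol and 19.6 ± 4.10 FPKM in ANIT (SD, n = 3 each; log2 fold change 0.93, SE 0.31, adjusted p = 0.068 in limma), and passed as higher under median-ratio and quantile scaling, with the replicate block and without celastrol replicate 1. Exons of other genes, among them Tk1 on the opposite strand, cover 46.6% of the exon bases of Afmid in GENCODE M21, and Tk1 measured 7.26, 23.3 and 9.22 FPKM in celastrol replicates 1, 2 and 3, against 3.41, 5.10 and 6.19 FPKM in ANIT replicates 1, 2 and 3. Both genes were highest in celastrol replicate 2, which was the highest of its group for 63.6% of all genes tested. The part of shared reads in the Afmid values was not tested.

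Kmo, the hydroxylase that feeds Haao by way of Kynu, had 96.8, 104.0 and 95.4 FPKM in celastrol replicates 1, 2 and 3, against 158.5, 130.8 and 115.2 FPKM in ANIT replicates 1, 2 and 3. Every celastrol library lay below every ANIT library (log2 fold change -0.43, SE 0.15, adjusted p = 0.068 in limma), and the call was made when rescaled to TPM and without celastrol replicate 2. Kynu, the kynureninase, averaged 48.4 ± 4.46 FPKM in celastrol and 37.8 ± 9.82 FPKM in ANIT (SD, n = 3 each; adjusted p = 0.20 in limma), and passed as higher after quantile normalization. Its groups were barely separated, at 44.34 FPKM in the lowest celastrol library and 44.11 FPKM in the highest ANIT library. Kmo and Kynu are also known from macrophages. None of the 10 tested macrophage markers passed in limma (1 had an unadjusted p under 0.05). Their summed level was 180.2 to 263.4 FPKM in celastrol libraries and 102.7 to 278.9 FPKM in ANIT libraries. Their median log2 fold change was 0.35, beside -0.17 over all genes tested. The part of macrophages in the Kmo and Kynu values was not tested.

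Aminotransferases of alanine and aspartate moved apart. Gpt, the cytosolic alanine aminotransferase (chromosome 15, positions 76695716 to 76699686, plus strand), fell to 103.6, 159.2 and 116.3 FPKM in celastrol replicates 1, 2 and 3, against 367.8, 252.3 and 235.8 FPKM in ANIT replicates 1, 2 and 3. Every celastrol library was below every ANIT library, with a log2 fold change of -1.16 (SE 0.23, adjusted p = 0.011 in limma). The call held under 13 of 14 alternatives and was lost without celastrol replicate 1 (adjusted p = 0.051). Gpt2, the mitochondrial form (chromosome 8, positions 85492576 to 85527560, plus strand), had 70.8, 117.1 and 87.0 FPKM in celastrol replicates 1, 2 and 3, against 150.7, 138.9 and 136.1 FPKM in ANIT replicates 1, 2 and 3. Its groups did not overlap (log2 fold change -0.65, SE 0.19, adjusted p = 0.041 in limma). The Gpt2 call was lost under 9 of 14 alternatives, namely median-ratio and quantile scaling, no filter, the replicate block, and leaving out celastrol replicate 1 or 3 or any 1 of the ANIT libraries (adjusted p up to 0.14).

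Got1, the cytosolic aspartate aminotransferase, had 70.2, 88.3 and 142.3 FPKM in celastrol replicates 1, 2 and 3, against 63.5, 30.5 and 43.4 FPKM in ANIT replicates 1, 2 and 3. The groups did not overlap, and the log2 fold change of 1.11 (SE 0.34) narrowly missed the threshold (adjusted p = 0.051 in limma). Got1 passed as higher under median-ratio scaling, with non-robust variance, with genes of a mean of at least 5 FPKM, and without ANIT replicate 1. The Gpt to Got1 ratio within a library, picked out after its values were seen and left unchanged by one scaling factor per library, was 1.47, 1.80 and 0.817 in celastrol replicates 1, 2 and 3 and 5.79, 8.28 and 5.43 in ANIT replicates 1, 2 and 3. Both genes were already separated, in opposite directions, so the ratio had to separate too.

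**Figure D3:**
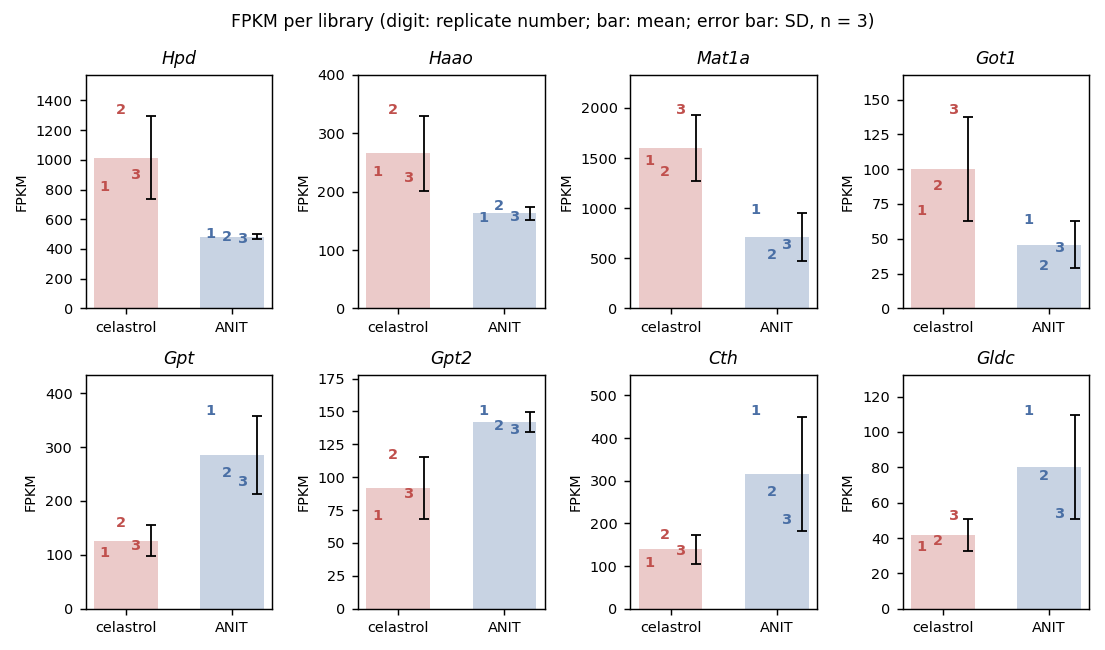
FPKM in each library (digits give the replicate number), with the group mean as a bar and the SD as an error bar (n = 3), for the 6 genes that passed and for Got1 and Gldc, which lay closest to the threshold. Celastrol and ANIT libraries do not overlap in any of the 8 panels, with the narrowest gap in Gldc (52.3 FPKM in the highest celastrol library, 53.7 FPKM in the lowest ANIT library).

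Sulfur amino acid genes held the most abundant transcripts of the set and moved in both directions. Mat1a, the liver methionine adenosyltransferase that makes S-adenosylmethionine (chromosome 14, positions 41105035 to 41124412, plus strand), rose to 1470, 1361 and 1977 FPKM in celastrol replicates 1, 2 and 3, against 986, 530.1 and 630.2 FPKM in ANIT replicates 1, 2 and 3. All celastrol libraries lay above all ANIT libraries, with a log2 fold change of 1.19 (SE 0.26, adjusted p = 0.016 in limma). Mat1a no longer passed after quantile normalization or without celastrol replicate 1, ANIT replicate 2 or ANIT replicate 3 (adjusted p up to 0.068). By mean FPKM Mat1a ranked 1 of the 47 with celastrol and 5 with ANIT.

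Cth, cystathionine gamma-lyase, which releases cysteine from cystathionine (chromosome 3, positions 157894248 to 157925077, minus strand), fell to 108.3, 173.6 and 134.8 FPKM in celastrol replicates 1, 2 and 3, against 464.6, 273.1 and 209.0 FPKM in ANIT replicates 1, 2 and 3. The groups did not overlap, though ANIT replicates spanned 2.22-fold (log2 fold change -1.12, SE 0.31, adjusted p = 0.038 in limma). The call was lost under 8 of 14 alternatives, namely median-ratio and quantile scaling, no filter, the replicate block, and without celastrol replicate 1 or 3 or ANIT replicate 1 or 2 (adjusted p up to 0.13). The Mat1a to Cth ratio within a library, likewise picked out later, was 13.6, 7.84 and 14.7 in celastrol replicates 1, 2 and 3 and 2.12, 1.94 and 3.01 in ANIT replicates 1, 2 and 3. Its separation likewise follows from that of the individual genes.

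Of the 47 genes, those that act between Mat1a and Cth (Bhmt, Gnmt and Cbs) did not pass. Bhmt, which remethylates homocysteine with betaine, had 1416, 1093 and 2212 FPKM in celastrol replicates 1, 2 and 3, against 2358, 1057 and 819 FPKM in ANIT replicates 1, 2 and 3. The ANIT libraries differed 2.88-fold among themselves and enclosed the celastrol values (log2 fold change 0.25, SE 0.44, adjusted p = 0.70 in limma). Bhmt has a close paralog, Bhmt2, whose reads may not be separable. Gnmt, the glycine methyltransferase that consumes S-adenosylmethionine, averaged 1091 ± 312 FPKM in celastrol and 786 ± 287 FPKM in ANIT (SD, n = 3 each; adjusted p = 0.27 in limma). Cbs, the cystathionine synthase just before Cth, averaged 171.8 ± 17.0 FPKM in celastrol and 163.9 ± 21.8 FPKM in ANIT (SD, n = 3 each; adjusted p = 0.76 in limma).

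Cysteine itself is oxidised by Cdo1, and the product is decarboxylated by Csad on the way to taurine. Cdo1 averaged 1286 ± 251 FPKM in celastrol and 1125 ± 91.8 FPKM in ANIT (SD, n = 3 each; adjusted p = 0.50 in limma), with overlapping groups. Csad had 42.1, 79.8 and 36.3 FPKM in celastrol replicates 1, 2 and 3, against 13.7, 31.8 and 24.9 FPKM in ANIT replicates 1, 2 and 3. The groups did not overlap, but each spread over more than 2-fold (log2 fold change 1.12, SE 0.39, adjusted p = 0.080 in limma), and Csad passed as higher under median-ratio and quantile scaling and with the replicate block.

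Of the 7 glycine and glyoxylate genes none passed, and 1 had an unadjusted p under 0.05. Gldc, the decarboxylase of the glycine cleavage system, had 35.1, 38.2 and 52.3 FPKM in celastrol replicates 1, 2 and 3, against 112.2, 75.1 and 53.7 FPKM in ANIT replicates 1, 2 and 3. The groups were barely separated (log2 fold change -0.88, SE 0.28, adjusted p = 0.056 in limma), and Gldc passed as lower when rescaled to TPM, with genes of a mean of at least 5 FPKM, and without ANIT replicate 3. Its partners in the system, Amt and Gcsh, had log2 fold changes of -0.31 (SE 0.26) and -0.42 (SE 0.20), with overlapping groups. Amt passed as lower without ANIT replicate 3. It was nearly level in celastrol, at 14.9 to 15.6 FPKM, and spread from 12.4 to 27.9 FPKM in ANIT. Agxt, the peroxisomal enzyme that turns glyoxylate into glycine, was the most abundant of the group in celastrol, at 141.6, 145.0 and 114.1 FPKM in replicates 1, 2 and 3, against 138.0, 94.4 and 67.4 FPKM in ANIT replicates 1, 2 and 3. ANIT replicate 1 lay within the celastrol values (log2 fold change 0.47, SE 0.25, adjusted p = 0.21 in limma). Agxt2, a mitochondrial aminotransferase, and Dmgdh and Sardh, which demethylate dimethylglycine and sarcosine, had log2 fold changes of 0.08, 0.15 and 0.03. Dmgdh, the most abundant of the group in ANIT, had 98.1, 123.4 and 152.3 FPKM in celastrol replicates 1, 2 and 3, against 129.2, 108.1 and 96.4 FPKM in ANIT replicates 1, 2 and 3 (adjusted p = 0.59 in limma). The groups overlapped.

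The 4 histidine genes overlapped between groups, and none passed or had an unadjusted p under 0.05. Hal, the lyase that opens the route, had 168.6, 148.6 and 182.6 FPKM in celastrol replicates 1, 2 and 3, against 237.7, 136.5 and 122.0 FPKM in ANIT replicates 1, 2 and 3. The celastrol libraries lay inside the ANIT range (log2 fold change 0.07, SE 0.25, adjusted p = 0.86 in limma). Uroc1, the urocanase that follows it and the most abundant of the group in ANIT, had 129.5, 170.2 and 132.0 FPKM in celastrol replicates 1, 2 and 3, against 203.3, 164.7 and 147.4 FPKM in ANIT replicates 1, 2 and 3 (adjusted p = 0.32 in limma). Amdhd1, the next enzyme, had 65.6, 77.8 and 59.8 FPKM in celastrol replicates 1, 2 and 3, against 102.1, 82.2 and 69.0 FPKM in ANIT replicates 1, 2 and 3, and had the smallest p of the group (adjusted p = 0.24). Ftcd, which passes the last one-carbon unit to folate, had a log2 fold change of -0.28 (SE 0.20). ANIT replicate 1 was the highest of the 6 libraries for each of the 4.

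Branched-chain breakdown was the largest group, and none of its 10 members passed, with 1 at an unadjusted p under 0.05. Their log2 fold changes ran from -0.40 to 0.24 with a median of -0.02. The subunits of the branched-chain ketoacid dehydrogenase, Bckdha, Bckdhb and Dbt, had log2 fold changes of 0.02 (SE 0.18), -0.17 (SE 0.14) and -0.05 (SE 0.14). Bckdha, the most abundant member by mean, had 92.4, 126.2 and 91.2 FPKM in celastrol replicates 1, 2 and 3, against 117.3, 103.7 and 84.4 FPKM in ANIT replicates 1, 2 and 3. The groups overlapped. B3gnt8, on the opposite strand, covers 61.7% of its exon bases but was listed at no more than 0.71 FPKM.

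Further down the branched-chain routes, Ivd, Mccc1 and Mccc2 of the leucine branch had log2 fold changes of 0.24 (SE 0.18), 0.19 (SE 0.15) and 0.21 (SE 0.12). Of these, Mccc2 alone had separated groups, at 22.4 to 28.7 FPKM in celastrol and 20.3 to 22.0 FPKM in ANIT, and it passed as higher under median-ratio and quantile scaling. Hibch, Hibadh and Aldh6a1 of the valine branch had log2 fold changes of -0.40 (SE 0.16), -0.11 (SE 0.20) and -0.13 (SE 0.15). Hibch, a hydrolase, had the smallest p of the 10, with 21.5, 27.1 and 23.5 FPKM in celastrol replicates 1, 2 and 3, against 34.2, 36.5 and 26.1 FPKM in ANIT replicates 1, 2 and 3 (adjusted p = 0.095 in limma). Its groups overlapped, and it passed as lower when rescaled to TPM, without celastrol replicate 2 and without ANIT replicate 3. Acadsb, which acts on the isoleucine product, had a log2 fold change of 0.18 (SE 0.15) and passed as higher after quantile normalization.

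The serine dehydratase Sds and its paralog Sdsl, the lysine enzyme Aass and the proline enzymes Prodh and Aldh4a1 did not pass, nor did any have an unadjusted p under 0.05. Sds, which turns serine into pyruvate, had 238.0, 324.8 and 287.8 FPKM in celastrol replicates 1, 2 and 3, against 299.2, 181.5 and 274.9 FPKM in ANIT replicates 1, 2 and 3 (adjusted p = 0.55 in limma). Sdsl had 23.6, 14.9 and 30.4 FPKM in celastrol replicates 1, 2 and 3, against 24.6, 14.7 and 16.7 FPKM in ANIT replicates 1, 2 and 3 (adjusted p = 0.53 in limma). Both pairs of groups overlapped. Aass, the first enzyme of lysine breakdown, had 69.3, 93.2 and 87.3 FPKM in celastrol replicates 1, 2 and 3, against 102.5, 70.3 and 77.3 FPKM in ANIT replicates 1, 2 and 3, a log2 fold change of 0.01 (SE 0.18). It had the smallest change of the 47.

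Aldh4a1, which finishes proline oxidation, had 69.1, 101.6 and 66.7 FPKM in celastrol replicates 1, 2 and 3, against 110.8, 101.8 and 98.5 FPKM in ANIT replicates 1, 2 and 3 (log2 fold change -0.41, SE 0.18, adjusted p = 0.13 in limma). Celastrol replicate 2 reached the ANIT range while the other two celastrol libraries lay below it. Prodh, the proline dehydrogenase before it, had the same order of celastrol libraries, with 44.9, 96.5 and 43.3 FPKM in celastrol replicates 1, 2 and 3, against 73.4, 71.7 and 61.3 FPKM in ANIT replicates 1, 2 and 3 (adjusted p = 0.56 in limma). Without celastrol replicate 2 both passed as lower, with log2 fold changes of -0.60 (adjusted p = 0.0070 in limma) for Aldh4a1 and -0.63 (adjusted p = 0.0089 in limma) for Prodh. Exons of Gm21969 cover 32.5% of the exon bases of Aldh4a1.

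**Figure D4:**
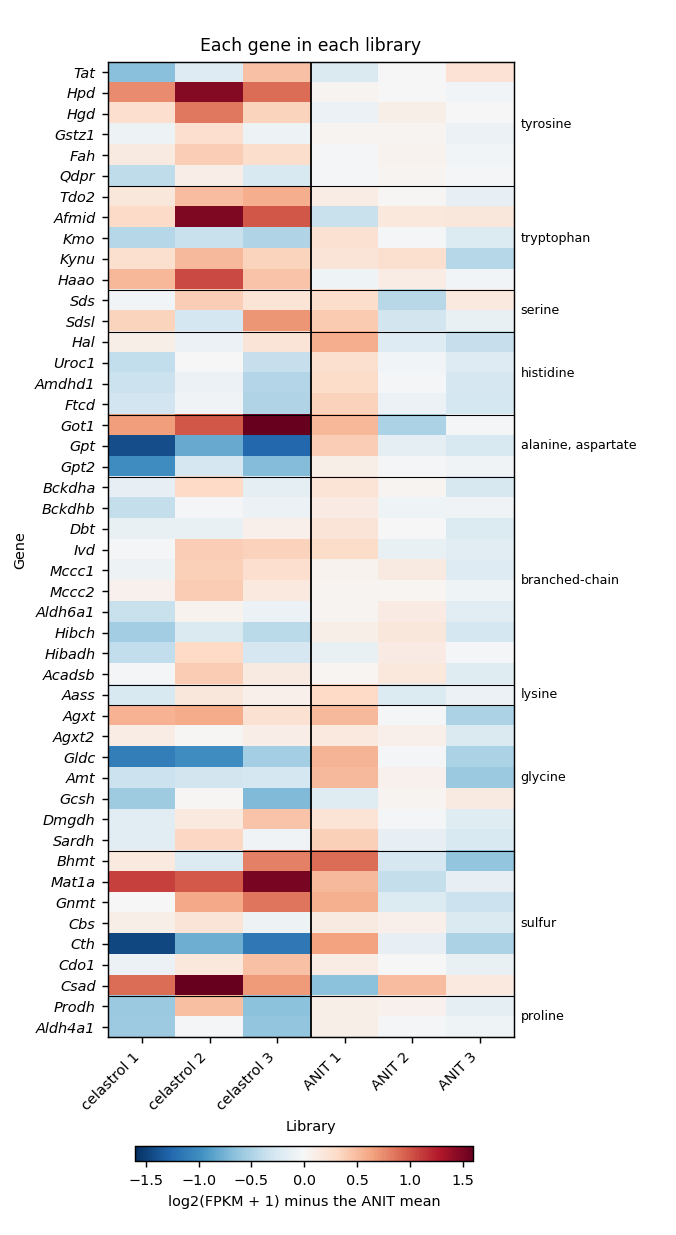
Log2(FPKM + 1) of each gene (rows, by amino acid) in each library (columns), minus the gene's mean over the ANIT libraries. Mat1a, Hpd and Haao are red and Gpt, Cth and Gldc blue in all celastrol columns, the branched-chain block stays pale, and ANIT replicate 1 is the reddest ANIT column in the histidine, glycine and sulfur blocks.

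Summed over the 47 genes, the level was 10588, 12850 and 14458 FPKM in celastrol replicates 1, 2 and 3, against 12809, 9757 and 9225 FPKM in ANIT replicates 1, 2 and 3. The groups overlapped, because of the high ANIT replicate 1, and the means did not differ detectably (exact permutation p = 0.2, two-sided, where 0.1 is the smallest that 3 against 3 libraries allow). As a share of the summed FPKM of all genes it was 1.76%, 2.19% and 2.48% in celastrol replicates 1, 2 and 3, against 2.36%, 1.83% and 1.69% in ANIT replicates 1, 2 and 3 (exact permutation p = 0.6, two-sided).

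A list of 56 other enzymes of amino acid breakdown had 54 listed and 53 tested, of which 6 rose and 8 fell. Their median log2 fold change was 0.01. Over all genes tested 4.41% rose and 20.6% fell, with a median of -0.17. In the tryptophan route Acmsd, the decarboxylase that takes the product of Haao away from quinolinate, fell to 4.89, 8.17 and 9.42 FPKM in celastrol replicates 1, 2 and 3, against 38.9, 31.5 and 27.8 FPKM in ANIT replicates 1, 2 and 3 (log2 fold change -2.02, SE 0.23, adjusted p = 0.0019 in limma). That was a larger difference than in any of the 47 genes. The Haao to Acmsd ratio within a library, of the same kind, was 47.9, 41.6 and 23.7 in celastrol replicates 1, 2 and 3 and 3.99, 5.58 and 5.65 in ANIT replicates 1, 2 and 3. Its separation too follows from that of the individual genes. Ccbl2, a kynurenine aminotransferase also named Kyat3, had a log2 fold change of -0.78 (SE 0.12, adjusted p = 0.0049 in limma). Both genes passed under all 14 alternatives.

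**Figure D5:**
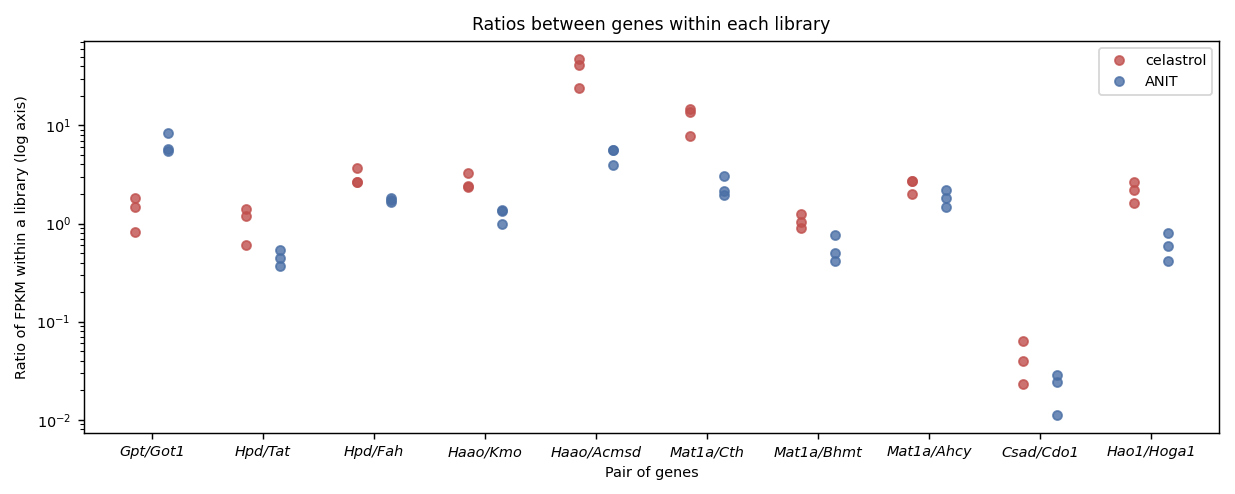
Ratio of FPKM between pairs of genes within each library, on a log axis, for the 10 pairs computed, chosen after their values were seen. Celastrol and ANIT libraries lie apart in 8 pairs and overlap in 2 (Mat1a to Ahcy and Csad to Cdo1). The widest gap is that of Haao to Acmsd (23.7 and above in celastrol, 5.65 and below in ANIT). Both genes were already separated in opposite directions in Gpt/Got1, Haao/Kmo, Haao/Acmsd, Mat1a/Cth and Hao1/Hoga1. Those ratios therefore had to separate.

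Among enzymes of glyoxylate and the methionine cycle in that list, Hao1, the glycolate oxidase, had 114.9, 113.3 and 147.7 FPKM in celastrol replicates 1, 2 and 3, against 50.7, 61.4 and 53.2 FPKM in ANIT replicates 1, 2 and 3 (log2 fold change 1.16, SE 0.15, adjusted p = 0.0027 in limma). Grhpr, which reduces glyoxylate, rose by 0.69 (SE 0.14, adjusted p = 0.013 in limma) but did not pass without celastrol replicate 1 or ANIT replicate 2. Hoga1, which makes glyoxylate from hydroxyproline and was picked out after its values were seen, had a log2 fold change of -0.68 (adjusted p = 0.041 in limma). Ahcy, which splits S-adenosylhomocysteine, rose beside Mat1a (log2 fold change 0.76, SE 0.18, adjusted p = 0.020 in limma), though it did not pass without celastrol replicate 3, ANIT replicate 2 or ANIT replicate 3. Chdh, the choline dehydrogenase that supplies betaine to Bhmt, had a log2 fold change of -0.85 (SE 0.13, adjusted p = 0.0044 in limma). Got2, the mitochondrial counterpart of Got1, likewise picked out later, lay lower at a log2 fold change of -0.50 (adjusted p = 0.049 in limma). The calls of Hoga1 and Got2 were not followed under the alternatives.

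Of 15 tested amino acid transporters 2 rose and 1 fell, where 4.41% of all genes tested rose and 20.6% fell. Slc16a10, a carrier of aromatic amino acids, had 29.8, 35.3 and 31.0 FPKM in celastrol replicates 1, 2 and 3, against 9.55, 10.7 and 9.73 FPKM in ANIT replicates 1, 2 and 3 (log2 fold change 1.59, SE 0.11, adjusted p = 0.00024 in limma). The replicates of each group were close together and far from the other group. Slc1a2, a glutamate carrier of pericentral hepatocytes, rose by 1.61 (SE 0.17, adjusted p = 0.0012 in limma) and is counted again among the pericentral markers below. Slc3a2, the heavy chain shared by several amino acid exchangers, had a log2 fold change of -0.88 (SE 0.11, adjusted p = 0.0025 in limma). Of 13 genes listed as regulators 1 passed. Cebpa, a transcription factor of mature hepatocytes, had 127.2, 171.0 and 108.6 FPKM in celastrol replicates 1, 2 and 3, against 70.4, 76.3 and 61.5 FPKM in ANIT replicates 1, 2 and 3 (log2 fold change 0.94, SE 0.19, adjusted p = 0.012 in limma). The glucocorticoid receptor Nr3c1, Klf15 and Hnf4a had log2 fold changes of 0.08 (SE 0.14), 0.02 (SE 0.15) and 0.11 (SE 0.13).

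Markers of liver zones were counted beside these genes. Among all genes tested, 4.41% rose and 20.6% fell. Of 9 tested pericentral markers 7 rose and none fell, with a summed level of 2390 to 4023 FPKM in celastrol libraries and 898 to 1285 FPKM in ANIT libraries. Glul, the pericentral glutamine synthetase, had 223.8, 277.5 and 233.3 FPKM in celastrol replicates 1, 2 and 3, against 15.8, 41.1 and 23.3 FPKM in ANIT replicates 1, 2 and 3 (log2 fold change 3.25, SE 0.32, adjusted p = 0.0012 in limma). Oat, the ornithine aminotransferase of the same zone and a catabolic enzyme itself, rose by 1.09 (SE 0.29, adjusted p = 0.033 in limma), a call lost with no filter, with the replicate block, and without celastrol replicate 1 or 3 or ANIT replicate 2 or 3 (adjusted p up to 0.10). Of 9 periportal markers none rose and 3 fell (Hsd17b13, Cdh1 and Ass1), while the groups of the other 6 overlapped. Summed over the 9, the level was 3465 to 4932 FPKM in celastrol and 5422 to 6418 FPKM in ANIT. Ass1 averaged 843 FPKM in celastrol and 1973 FPKM in ANIT. Sds, Hal and Uroc1 are among the members known as periportal, and their groups overlapped here. Members that passed, such as Gpt, were not sorted by zone, so these genes do not stand for all periportal members. The part of these zones in the results was not tested.

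Hepatocyte markers summed to 14470 to 22360 FPKM in celastrol libraries and 41948 to 54538 FPKM in ANIT libraries, a gap made mostly by albumin. The groups of Apoa1, Apob, Ttr, Fabp1 and Cps1 overlapped. Those of Serpina1a lay apart, lower with celastrol, without passing. Tf, the 1 of 8 without values, was not analysed here. Albumin (Alb) had 5341, 10051 and 5563 FPKM in celastrol replicates 1, 2 and 3, against 29351, 29532 and 38656 FPKM in ANIT replicates 1, 2 and 3. It was the 1 of 7 tested hepatocyte markers that passed, as lower (log2 fold change -2.27, SE 0.29, adjusted p = 0.0024 in limma). Beside the counts that follow, 4.41% of all genes tested rose and 20.6% fell. Of 4 tested neutrophil markers 3 rose. The neutrophil list summed to 65.4 to 90.3 FPKM in celastrol libraries and 30.9 to 54.1 FPKM in ANIT libraries. Mpo was at 0 in at least 1 library. For bile duct cells 1 of 3 fell (Krt19), with a summed level of 16.2 to 44.7 FPKM in celastrol and 38.9 to 46.2 FPKM in ANIT, and Cftr was at 0 in at least 1 library. For endothelial cells 1 of 6 rose (Stab2), with a summed level of 35.8 to 63.5 FPKM in celastrol and 25.2 to 42.8 FPKM in ANIT. None of 3 stellate markers passed in limma (1 had an unadjusted p under 0.05), and they summed to at most 8.49 FPKM in celastrol and 9.15 FPKM in ANIT. No lymphocyte marker passed the filter, with sums of at most 1.91 FPKM in celastrol and 0.85 FPKM in ANIT. Of the kidney and pancreas genes Prss1, Ctrb1 and Slc12a1 had no values here, and the 1 tested did not pass. The part of these cells in the results was not tested.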

How the data were processed

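The deposited values are FPKM, 1 table per library, per the file headers. HISAT2 alignment to mm10 and featureCounts counting are named, per the submitters' processing notes. The annotation, gene lengths, strand setting and the step from counts to FPKM are not stated by the labels or files, so genes with overlapping or paralogous neighbours are uncertain. Unlisted symbols were taken as 0, and 2 repeated symbols were left out. No read counts were rebuilt. Depth was estimated from low values of genes with a single transcript, where 1 read is worth a fixed amount.

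The abundance filter kept genes reaching 1 FPKM in 3 or more of the libraries, and the deposited FPKM entered limma 3.58.1 (R 4.3.3) as log2(FPKM + 1) (empirical Bayes trend, robust variance, group as the only term, Benjamini-Hochberg adjustment over all 10593 genes), after a test on simulated data. Fold changes on this scale understate those of low genes. Alternatives were a pseudocount of 0.1, no filter, a mean of at least 5 FPKM, 3 scalings, non-robust variance, a replicate block and leaving out each library. Positions and exon overlaps came from GENCODE M21 (mm10), and promoters from RefSeq (GRCm38.p6). Named genes were all 47 members, up to 3 genes that passed, by smallest p, in each direction of each further list of enzymes, transporters and regulators, and Nr3c1, Klf15, Hnf4a, Glul and Oat, while 1 further gene of the rule is not reported here. Members, lists and motifs were chosen with earlier results of these data known.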

Additional observations from a re-analysis of the deposited data

How the results depend on the processing

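Of the 47 genes, 24 passed under no setting, and 23 passed in the fit as reported or under at least 1 of 14 alternatives. The count of the 47 that passed, 6, became 3 with no filter, 11 under median-ratio scaling, 10 when rescaled to TPM and 10 after quantile normalization, and ran from 2 to 12 when 1 library was left out. Those higher, 3, became 10 under median-ratio scaling, 9 after quantile normalization and 5 with the replicate block, and ran from 1 to 3 with 1 library left out. Those lower, 3, became 1 with no filter, 1 under median-ratio scaling, 7 when rescaled to TPM, 1 after quantile normalization and 1 with the replicate block, and ran from 0 to 9 with 1 library left out. Their median log2 fold change was 0.28 under median-ratio scaling and 0.26 after quantile normalization, and ran from -0.04 to 0.16 with 1 library left out. Over all genes tested, 2652 passed as reported, 4202 when rescaled to TPM and 1127 to 3841 with 1 library left out. Those higher, 467, became 904 under median-ratio scaling and 873 after quantile normalization, and ran from 218 to 515 with 1 library left out. Those lower, 2185, became 1039 under median-ratio scaling, 3813 when rescaled to TPM and 952 after quantile normalization, and ran from 909 to 3326 with 1 library left out. Deviations of same-numbered libraries from their group means correlated at 0.15, 0.23 and -0.09 over genes, so the numbers were not taken to pair the samples, and only 1 of the 3 pairs was the best match on both sides. The summed level of the 47 genes was higher with celastrol by 2035 FPKM, and by 1122 to 3141 FPKM with 1 library left out. None of the 6 called genes of the 47 changed direction under the alternatives run. The causes of these changes were not tested, and with 3 libraries a group a gene that did not pass is not shown to be unchanged.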
